A study of Mus musculus with 39 samples.

Results

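H3K27me3, the trimethyl mark on a lysine of the histone H3 tail, was profiled by CUT&Tag in mouse spermatogonia sorted with an antibody to the receptor cKIT. CUT&Tag tethers a transposase to an antibody and sequences the DNA it cuts. The data described here are 6 of the 39 libraries of the series, chosen by their labels. They are 2 control and 3 conditional knockout (cKO) libraries made with the H3K27me3 antibody, and 1 control library made with a nonspecific IgG. Controls are labelled Kdm6a fl/y; Cre-, and cKO samples Kdm6a fl/y; Ddx4-Cre+. Both groups thus carry the floxed allele of Kdm6a on their single X chromosome, and they differ by a Cre recombinase under the control of Ddx4, a gene of the germ line. The labels give 50000 sorted cells per library and name no age. They do not say whether replicates came from separate animals, so the spread between libraries may be partly technical. For each library the authors deposited a list of regions in mm10 coordinates, with the signal summed over each region and the highest signal in it. The study also holds ATAC-seq from the same sorted cell type, single-cell RNA-seq of whole testis, and bulk RNA-seq.

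H3K27me3 is written by Polycomb repressive complex 2, whose catalytic subunit is EZH2 or EZH1, and it is known for marking the silent promoters of developmental regulators, which are rich in CpG dinucleotides. KDM6A, also called UTX, removes it. The germ line is known to keep many developmental genes under this mark from spermatogonia to sperm. Spermatogonia that carry cKIT are those that have left the stem and progenitor pool and are differentiating towards meiosis.

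The 4 promoters below are examples from inside and outside the lists, and do not stand for either kind. Each is the 250 bases before the RefSeq start site (GRCm38.p6), printed 5′ to 3′ on the gene's strand, with each CpG in capitals. Hoxa11 (chr6:52245811-52246060, minus strand) is a homeobox gene of limb and body axis patterning. Neurog3 (chr10:62132840-62133089, plus strand) is a transcription factor of progenitor spermatogonia. All 250 bases of both lay inside a called region in each of the 5 H3K27me3 lists. Eef2 (chr10:81176381-81176630, plus strand), a translation elongation factor, and Kdm6a (chrX:18162325-18162574, plus strand) lay in none of them.
Hoxa11: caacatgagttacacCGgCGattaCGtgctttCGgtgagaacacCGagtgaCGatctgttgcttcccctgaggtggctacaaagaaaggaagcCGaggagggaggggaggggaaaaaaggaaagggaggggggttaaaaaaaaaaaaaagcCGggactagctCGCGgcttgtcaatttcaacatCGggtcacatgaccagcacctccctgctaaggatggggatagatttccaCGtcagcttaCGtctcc
Neurog3: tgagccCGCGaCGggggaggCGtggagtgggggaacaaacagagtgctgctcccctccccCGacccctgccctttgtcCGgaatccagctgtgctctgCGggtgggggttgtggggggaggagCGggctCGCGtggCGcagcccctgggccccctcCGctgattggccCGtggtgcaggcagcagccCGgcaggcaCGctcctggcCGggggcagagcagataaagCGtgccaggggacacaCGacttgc
Eef2: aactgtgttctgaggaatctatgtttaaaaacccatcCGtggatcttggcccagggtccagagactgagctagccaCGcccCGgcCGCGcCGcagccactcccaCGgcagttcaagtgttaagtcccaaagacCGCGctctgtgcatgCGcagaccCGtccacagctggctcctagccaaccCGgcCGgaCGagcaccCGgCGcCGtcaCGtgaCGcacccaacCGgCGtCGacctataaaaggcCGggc
Kdm6a: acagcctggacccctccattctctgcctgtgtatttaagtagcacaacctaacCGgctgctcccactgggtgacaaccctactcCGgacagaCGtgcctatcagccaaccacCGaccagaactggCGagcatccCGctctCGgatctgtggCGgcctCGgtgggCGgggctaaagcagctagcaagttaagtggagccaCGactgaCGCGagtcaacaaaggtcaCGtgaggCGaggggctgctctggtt
These stretches hold 13 CpG in Hoxa11, 18 in Neurog3, 23 in Eef2 and 15 in Kdm6a. CG reads the same on both strands. Of 27025 RefSeq promoters of this length, 31.8% hold at least 13 and 13.03% at least 23. The unmarked Eef2 promoter was thus the most CpG-rich of the 4.

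Read at the first start site of each gene in the table, 1560 promoters had a region within 1 kb in all 5 lists, and these were richer in G, C and CpG than the 22233 marked in none. Their median GC content over the 300 bases around the start was 60.3%, against 51.3%. Their median CpG number was 15, against 7. Among protein-coding genes alone the medians were 17 and 13 CpG. Only 0.705% of promoters marked in all 5 lists lacked a CpG, against 6.64% of those marked in none. Promoters marked in 1 or 2 lists were not richer, with medians of 6 and 7 CpG. Among protein-coding genes, those marked in 1, 2 or 3 lists had medians of 9, 11 and 12 CpG, below the 13 of unmarked ones. Within single lists the median was 12 CpG in control 1, 10 in control 2, 13 in cKO 1, 13 in cKO 2 and 11 in cKO 3.

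No measure of a whole list differed between genotypes beyond the spread between libraries. The names of the lists hold the number 0.01 before SEACR, the region caller. A cut set within each library would limit what these measures show of the mark as a whole, and its part was not tested. The authors listed 14545 regions in control 1, 18494 in control 2, 11118 in cKO 1, 14584 in cKO 2 and 15368 in cKO 3. The means were 16520 ± 2792 (SD, n = 2) and 13690 ± 2262 (SD, n = 3), p = 0.5 by the two-sided exact permutation test. That test runs over the 10 ways to split 5 libraries and cannot go below 0.1. The IgG list held 1443 distinct regions, each of which overlapped a region of control 1. Covered length was 48.1 Mb in control 1, 81.3 Mb in control 2, 21.3 Mb in cKO 1, 30.3 Mb in cKO 2 and 70.1 Mb in cKO 3. cKO 3 covered more than control 1 and far more than the other cKO libraries, so the groups overlapped. The mean length was 64.7 ± 23.5 Mb (SD, n = 2) in controls and 40.6 ± 26.0 Mb (SD, n = 3) in cKO, p = 0.4 by the exact permutation test.

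The narrow lists held the highest peaks. The median region was 2521 bp wide in control 1, 3070 bp in control 2, 1539 bp in cKO 1, 1644 bp in cKO 2 and 3341 bp in cKO 3. The median of the highest signal per region was 88, 61, 135, 97 and 80 deposited signal units in the same order. The library with the narrowest regions, cKO 1, thus had the highest peaks, and control 2, with wide regions, the lowest. The exact permutation p was 0.5 for width and 0.4 for height. Regions of 10 kb or more held 12.2% of the covered length in control 1, 25.4% in control 2, 2.27% in cKO 1, 3.91% in cKO 2 and 23.3% in cKO 3. Regions under 1 kb made up 17.4% of the list in cKO 1 and 13.7% in cKO 2, but 1.44% in control 1, 0.524% in control 2 and 0.429% in cKO 3. The smallest summed signal that a region had in its list was 43076 in control 1, 31758 in control 2, 43283 in cKO 1, 33446 in cKO 2 and 46071 in cKO 3, so the bar that a region had to pass differed between libraries in a way that did not follow genotype. The summed signal of a whole list in units of 1000000 was 1967, 2376, 1277, 1371 and 2419 (exact permutation p = 0.4). By the names of the lists, 4 of the 5 libraries had been downsampled and cKO 2 had not. The part of depth in these differences was not tested, because the sources give an aimed depth of 30 M reads per library and no read numbers reached.

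**Figure D1:**
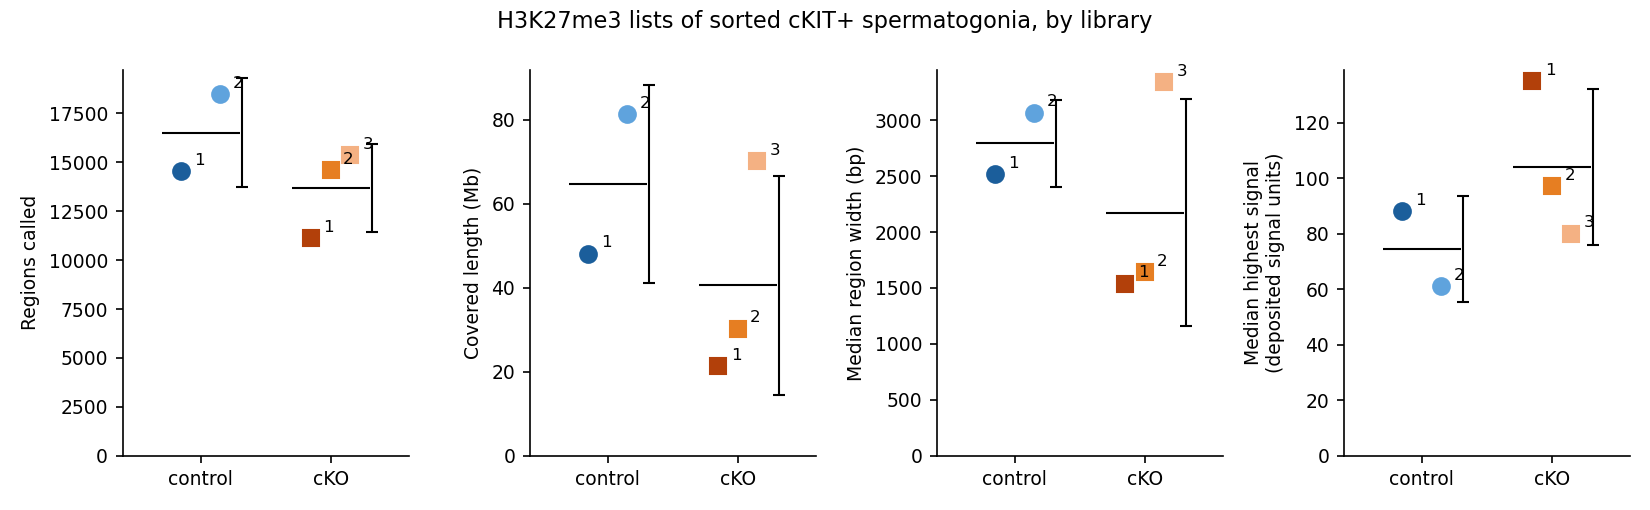
Number of regions, covered length (Mb), median region width (bp) and median highest signal (deposited units) of each H3K27me3 list; points are libraries with their replicate number, lines are group means and bars the SD (n = 2 controls, n = 3 cKO). cKO 3 lies with the controls in covered length (70.1 Mb) and width (3341 bp), away from cKO 1 and cKO 2.

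The IgG list was tied to control 1. Each of its 1443 regions overlapped a region of control 1, while 1271 overlapped control 2, 759 cKO 1, 902 cKO 2 and 1192 cKO 3. An IgG region was listed as many times as the number of control 1 regions it touched, for all 1443. Leaving out regions on the IgG list removed 8.86% of the regions of control 1 and 5.85% to 6.65% of those of the other libraries. These regions held 20.7% to 23.8% of the summed signal of each H3K27me3 list, and 10 regions held 69.2% of the IgG list's own signal.

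The lists shared most of what the smaller ones held. Of the bases of cKO 1, 90.6% lay in regions of control 2 and 87.0% in regions of cKO 3, but 62.4% in regions of cKO 2. The Jaccard index, bases shared by 2 lists over bases in either, was highest between control 2 and cKO 3, at 0.505. It was 0.422 between the controls, and 0.347, 0.323 and 0.254 among the cKO libraries. Its mean was 0.336 within genotypes and 0.357 between them (exact permutation p = 0.7). The index cannot exceed the length of the shorter list over that of the longer. Covered lengths ran from 21.3 Mb (cKO 1) to 81.3 Mb (control 2). These means thus carry list length as well as genotype, and cannot tell whether lists of 1 genotype are more alike. Without cKO 3 the mean within genotypes was the higher, by 0.0826 (exact permutation p = 0.333).

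**Figure D2:**
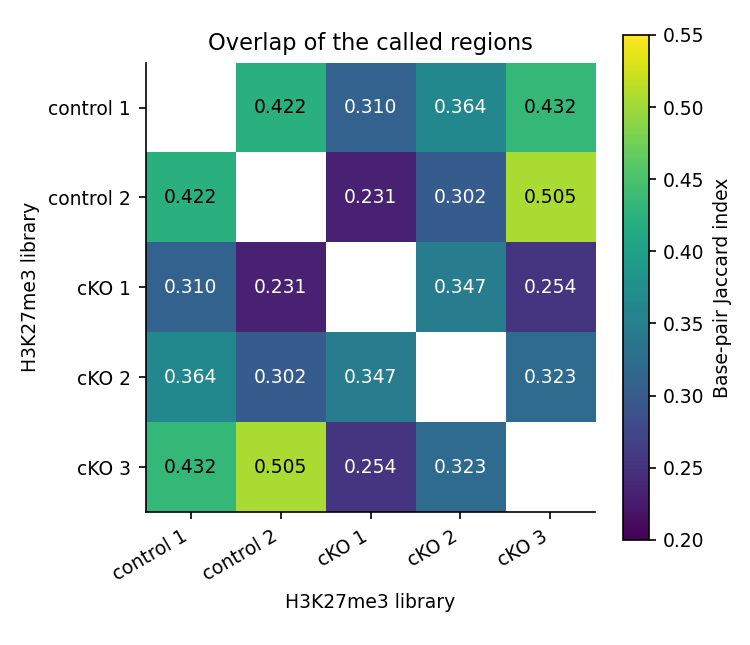
Base-pair Jaccard index of each pair of H3K27me3 lists (colour and number; no unit). The index was highest for control 2 and cKO 3 (0.505) and lowest for control 2 and cKO 1 (0.231). It also depends on how far the lengths of 2 lists differ.

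Merging all overlapping regions gave 23569 regions, of which 4320 (18.3%) were found in all 5 lists and 9632 (40.9%) in 1 list. The regions in all 5 lists were the widest, with a median merged width of 8497 bp against 2171 bp for those in 1 list. A merged region joins the calls of all its lists, so this order is partly built in. The regions in all 5 lists held 87.7% of the summed signal of cKO 1 and 67.4% of that of control 2, with the other libraries between. Of them, 43.1% lay within 1 kb of a start site, against 20.1% of all merged regions. These shares were not adjusted for width. Control 2 alone held 4136 regions, cKO 3 alone 2148, and the pair of them without the others 1591.

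Few regions followed genotype. Both controls and no cKO library held 874 regions, 3.71% of all merged regions. All 3 cKO libraries and no control held 33, or 0.14%. The former needs 2 libraries and the latter 3, so the counts are unlike measures. Leaving out a library drops a condition, so either count can only rise. Control-only regions numbered 5010 without control 1, 2338 without control 2, 1000 without cKO 1, 1180 without cKO 2 and 2107 without cKO 3. cKO-only regions numbered 62 without control 1, 296 without control 2, 298 without cKO 1, 144 without cKO 2 and 76 without cKO 3. Both kinds were weak within their lists, with median percentiles of highest signal of 31.6 and 32.7 in the controls and of 24.7, 43.3 and 38.6 in cKO 1, 2 and 3, where regions in all 5 lists had medians of 66.5 to 85.4. Regions in few lists that did not follow genotype were weak too. The median was 28.6 for those of control 2 alone. For those of control 2 and cKO 3 alone it was 32.7 and 30.4.

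Summed signals of single regions are given from here on in units of 1000. The strongest control-only region lay in Fry (chr5:150118689-150129310), with a summed signal of 43.7 in control 1 and 203 in control 2. The next lay in Ttll11, a tubulin polyglutamylase gene (chr2:35953376-35958518, 129 and 113). A cKO-only region also lay in Ttll11 (chr2:35950036-35952725), next to the control-only region, with 89.4, 92.9 and 54.1 in cKO 1, 2 and 3. The same gene thus held a region of each kind. The strongest cKO-only region covered the start of Gm45618 (chr7:142117809-142127287, 58.1, 117 and 199). The others were in Mdga1, a neuronal adhesion gene, at the start of Paqr5, and at the start of Fcmr, the receptor for IgM (chr1:130863088-130867341, 75.02, 96.2 and 82.4). The other control-only regions named by signal were 1 in Slc29a4, a monoamine transporter, and 2 outside any RefSeq gene (chr5:113687181-113691913 and chr3:100975089-100983739).

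The 4320 shared regions gave no difference in signal between cKO and control that passed the test. Summed signals were put on a log2 scale, centred on each library's median and tested with limma. None of the 4320 had a Benjamini-Hochberg adjusted p under 0.05 (0% called), and the smallest adjusted p was 1.00. At an unadjusted p under 0.05 there were 164 regions, 3.8% of those tested, with 90 higher (2.08%) and 74 lower (1.71%) in cKO. The signal of shared regions correlated between libraries with r from 0.835 (cKO 1 and cKO 3) to 0.916 (control 2 and cKO 3) on the log2 scale, across 4320 regions that are not independent. Signal was also simulated with independent normal noise of the spread that the fit itself estimated. There the fit recovered 93.0% of regions changed by 2 on the log2 scale and 18.5% of those changed by 1. Changes of 1 or less were thus mostly beyond the reach of 2 against 3 libraries. Shifts that many regions of a library share were not simulated, and their effect on recovery was not tested. Without centring, the median log2 difference of the shared regions was -0.29 for summed signal, -0.55 for the width called and 0.23 for the highest signal, so the sign of the overall shift depends on the measure. With the centred values the median was 0.06.

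The regions with the smallest p did not pass. Those at Pabpn1l, Baiap3, Vash2 and Lmo1 were called with the replicate number as a block (limma adjusted p = 0.0154, 0.00149, 0.00836 and 0.0154), although the numbers are not shown to pair libraries. No control has the replicate number of cKO 3, so that fit leaves cKO 3 out of the difference between genotypes. Of the regions higher in cKO, the smallest p belonged to 1 at the start of Pabpn1l, the gene of a poly(A)-binding protein (chr8:122618064-122629594). Its summed signal was 61.4 in control 1, 378 in control 2, 341 in cKO 1, 288 in cKO 2 and 327 in cKO 3. The log2 fold change was 1.41 ± 0.40 (SE), unadjusted p = 0.000607, adjusted p = 1.00 by limma. Only control 1 was low, and control 2 was above all cKO libraries in the deposited signal. Without control 2, control 1 was the only control left, and the log2 fold change of this region was 2.63. Others higher in cKO overlapped Etv4, an ETS factor of the FGF response, with 50.6 and 32.6 in controls and 90.5, 57.1 and 122 in cKO. Baiap3, on the IgG list, had 54.3 and 38.0 in controls and 171, 114 and 58.7 in cKO. Ccbe1, a gene of lymphatic vessel growth, had 45.1 and 58.2 in controls and 68.8, 128 and 177 in cKO. Ppp2r2c, a phosphatase subunit gene, had 45.9 and 35.5 in controls and 55.4, 75.5 and 124 in cKO. In these 4 regions the deposited values of the groups did not overlap. They were picked for their p on the same values, and the share of all shared regions that separate in this way was not counted.

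Of the regions lower in cKO, the smallest p belonged to 1 over the start of Vash2, an angiogenesis factor gene (chr1:190955702-190979064). Its values were 433 and 392 in controls and 85.7, 48.7 and 392 in cKO, with a log2 fold change of -1.45 ± 0.43 (SE), unadjusted p = 0.00103, adjusted p = 1.00 by limma. Here cKO 3 lay at the level of control 2, and the width called was 14619 and 19563 bp in controls, 1804 and 1381 bp in cKO 1 and 2, and 15190 bp in cKO 3. Per base, the difference had the opposite sign (0.23). Lmo1, a LIM-domain gene, likewise was low in cKO 1 and 2 alone, with 408 and 427 in controls and 45.0, 135 and 484 in cKO. A region in Ces4a (chr8:105139957-105151952) was lower in every cKO library, with 403 and 353 in controls and 170, 108 and 64.4 in cKO (log2 fold change -1.48 ± 0.46, SE). Scn8a, a sodium channel gene, had 247 and 194 in controls and 44.5, 38.7 and 130 in cKO. The last named region lay outside genes (chr1:125518915-125530741, 123 and 239 in controls, 59.9, 35.1 and 48.2 in cKO). Without cKO 3, 4 regions were called, all higher in cKO, all on the IgG list and none in a gene. In those 4, cKO 3 had the lowest deposited value of all libraries.

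The 10 merged regions with the largest summed signal all overlapped the IgG list. They included the array of 5S ribosomal RNA genes (chr8:123535655-123630275), a region over Rn18s-rs5, a ribosomal RNA gene (chr17:39841871-39848847), and regions without any RefSeq gene. In one of the latter (chr2:98666123-98667493) the highest signal was 117976 in control 1, 192275 in control 2, 108990 in cKO 1, 136660 in cKO 2 and 89524 in cKO 3, against library medians of 61 to 135. A region over part of the HOXC cluster and a region at Lmx1b, a limb patterning gene, were the developmental loci among the 10. The widest called region lay on chromosome 6 outside genes (chr6:114489483-114638965 in control 1), at 149 kb in control 1, 145 kb in control 2 and 148 kb in cKO 3. Of the 5 regions called over the HOXC cluster in cKO 3, the widest was 89.8 kb.

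Off the IgG list, the largest regions included part of HOXA and regions at the listed developmental factors Cdx2, Six3 and Pax2. The others hold no member of the gene lists, and these shares were not set against a background. First was the HOXA region chr6:52191905-52260348, with 6669 and 5086 in controls and 4320, 3871 and 6555 in cKO. Next came Cdx2 with Pdx1, regulators of gut and pancreas, with 4588 and 3842 in controls and 3101, 2463 and 4109 in cKO. Six3, a gene of forebrain and eye, had 3828 and 2970 in controls and 2652, 2203 and 3722 in cKO. Regions at Pax2, Uncx, the host gene of Mir9-3, Nkx2-3, Dmbx1 and Epha8 followed, with 1 over H2-Q genes of the major histocompatibility complex. In all 10, cKO 1 and 2 were below both controls in deposited signal, while cKO 3 lay between the controls or above them. After centring, their log2 differences lay between -0.06 and 0.27 and none passed the test.

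The 4 HOX clusters were covered in every library. These clusters hold the homeobox genes that set position along the body axis. HOXA (chr6:52155367-52318389) was covered over 77.0% of its length in control 1, 91.8% in control 2, 62.9% in cKO 1, 64.8% in cKO 2 and 82.0% in cKO 3. HOXB (chr11:96194316-96368254) was covered over 68.3% and 84.5% in controls, and 44.8%, 49.0% and 72.3% in cKO. HOXC (chr15:102921131-103036856) was covered over 88.4% and 94.2% in controls, and 60.8%, 66.3% and 89.6% in cKO. HOXD (chr2:74652989-74765142) was covered over 69.5% and 73.8% in controls, and 45.0%, 48.6% and 79.0% in cKO. The order of the libraries was that of the covered length of the whole lists in HOXA, HOXB and HOXC, and the exact permutation p was 0.3 for these 3 and 0.4 for HOXD. In cKO 1 and 2 the same stretches were called in more and shorter pieces, with 28 and 23 regions over HOXA against 17, 11 and 10 in control 1, control 2 and cKO 3. Height did not follow coverage. The highest signal in HOXA was 634 and 391 in controls and 569, 345 and 627 in cKO (p = 1 by the exact permutation test). In HOXD it was 572 and 476 in controls and 606, 576 and 586 in cKO, groups that did not overlap, with p = 0.1 by the exact permutation test, the smallest it can give. These values are unscaled, and the unscaled highest signal of all shared regions had a median log2 difference of 0.23. The share of regions whose groups separate in this way was not counted. HOXB and HOXC gave 0.7 and 1 by the same test.

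**Figure D3:**
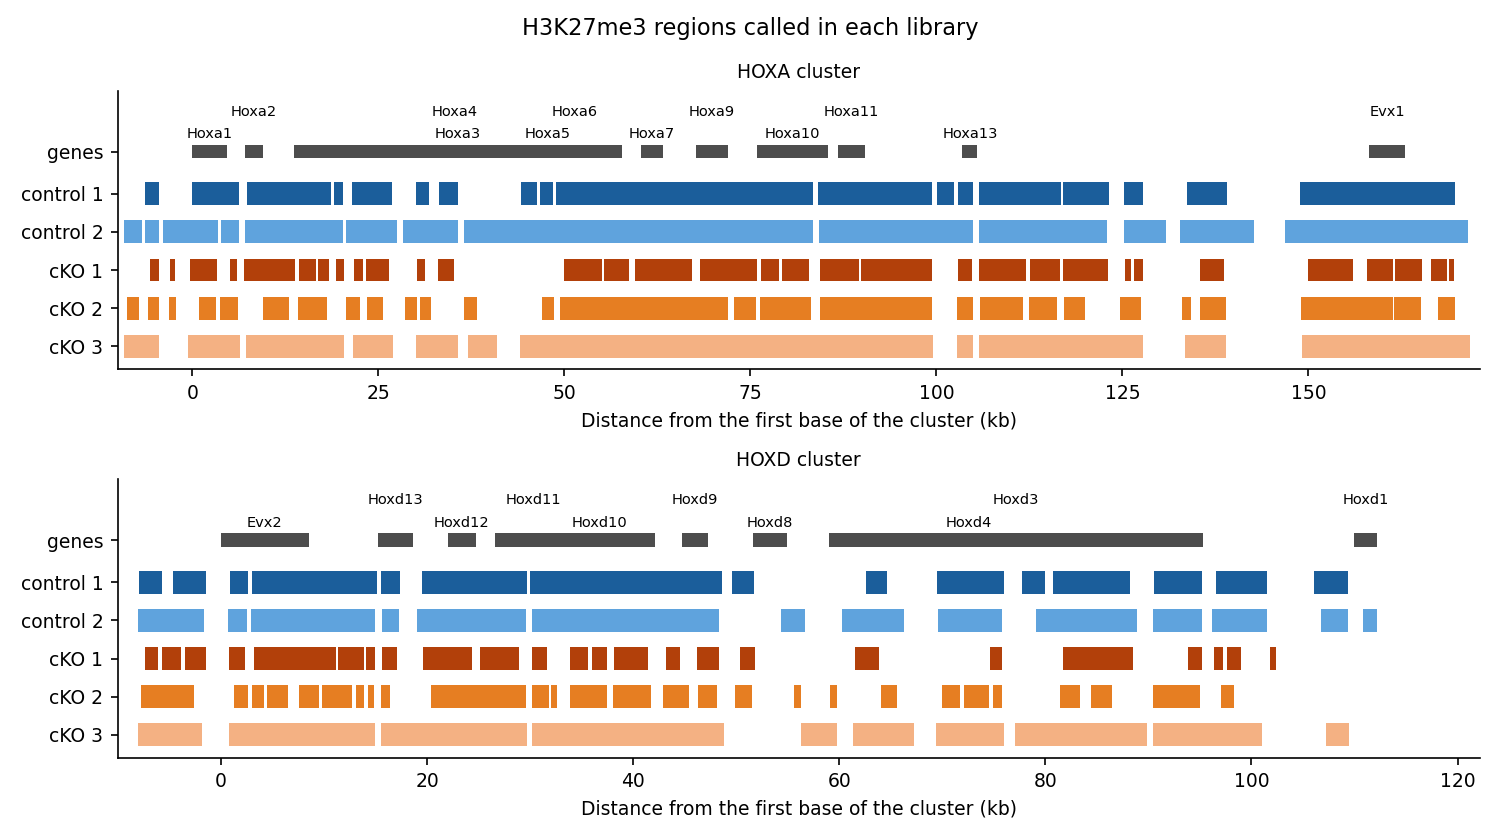
Called H3K27me3 regions (coloured bars, 1 row per library) over the HOXA and HOXD clusters, with gene extents in grey; the axis is distance in kb from the first base of the cluster. The clusters are called in 17 and 13 regions in control 1 and in 28 and 21 regions in cKO 1.

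Of 24 HOX-cluster genes (with Evx1 and Evx2) that have a start site in the RefSeq table, 20 had a region within 1 kb of it in all 5 lists, against 6.12% of all 27025 genes, and none was unmarked in every list. The 4 others were Hoxd genes. Hoxd8 was marked in control 1, cKO 1 and cKO 2, Hoxd4 and Hoxd1 in both controls and cKO 3, and Hoxd3 in cKO 2 and cKO 3. The region at Hoxa11 had a highest signal of 531 and 362 in controls and 502, 281 and 627 in cKO, and stood at or above the 98.4th percentile of highest signal in each list.

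Developmental transcription factors were also marked in nearly every list. Of 66 with a start site, 60 were marked in all 5 lists and none was without mark in every list. By whole gene extent with 1 kb on either side, 95 of 97 were marked in all 5 lists, beside 12.0% of 21887 genes. Pax6, a master gene of the eye, had a highest signal of 372 and 254 in controls and 403, 353 and 304 in cKO. Otx2, a gene of the anterior brain, had 294 and 228 in controls and 299, 289 and 368 in cKO. Gata2, a gene of blood progenitors, had 215 and 213 in controls and 310, 182 and 263 in cKO. Sox2, a pluripotency and neural gene, had 257 and 213 in controls and 133, 198 and 296 in cKO. In all 4 the groups overlapped. The 6 genes marked in some lists were Isl1, Lhx9, Meis2, Neurod1, Pou3f3 and Twist1. All but Twist1 were marked in both controls, and each lacked a region in 1 or more cKO lists. Twist1, a mesoderm gene, had 1 in control 2 and cKO 2. Over the 71 shared regions at such genes the median log2 difference was 0.06, with 45 above 0 and 26 below, beside a median of 0.06 and 2490 above 0 of 4320 for all shared regions.

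Of 20 genes of developmental signals, 17 were marked in all 5 lists, beside 6.12% of all genes. Wnt1, a ligand of the midbrain, had a highest signal of 477 and 438 in controls and 419, 366 and 523 in cKO. Gdnf, the ligand of the niche that maintains spermatogonial stem cells, had 143 and 109 in controls and 110, 84 and 161 in cKO. Bmp4, a ligand needed for germ cell formation in the embryo, had 77 and 60 in controls and 197, 113 and 68 in cKO, so cKO 3 lay between the controls. The median log2 difference of the 17 shared regions at such genes was 0.14, with 13 above 0, and none passed the test.

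**Figure D4:**
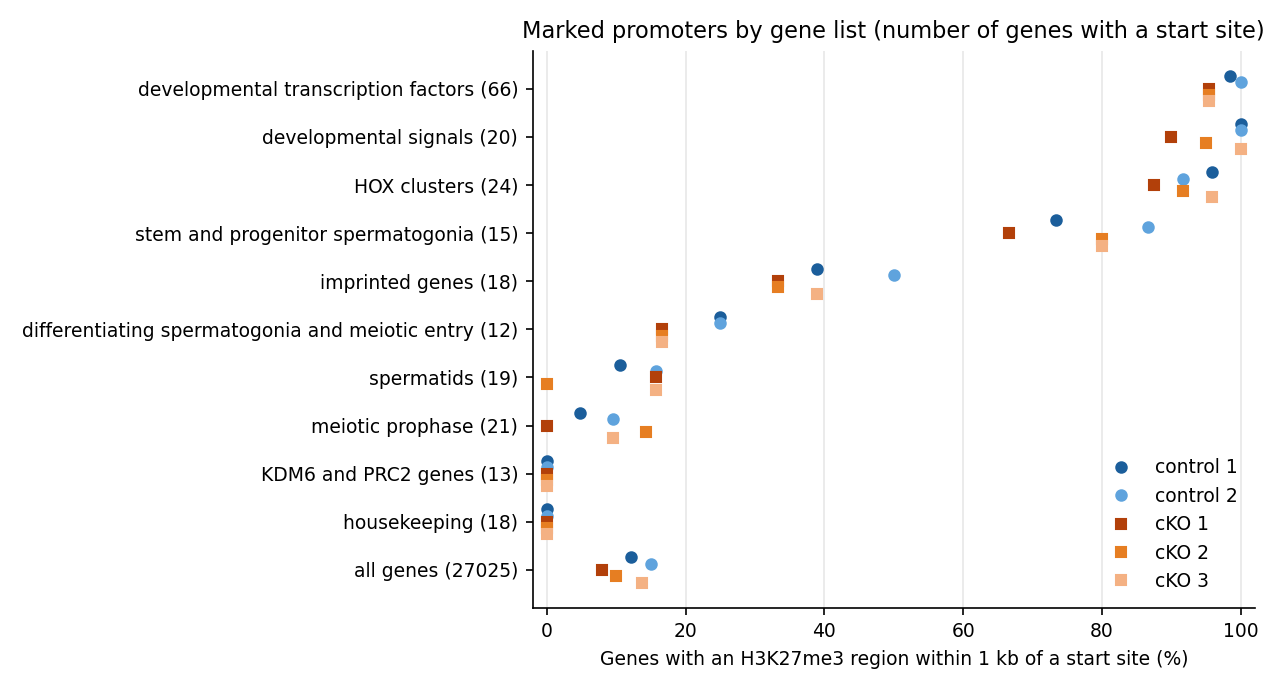
Share (%) of the genes of each list that have an H3K27me3 region within 1 kb of a start site, 1 point per library (blue circles controls, orange squares cKO), with all 27025 genes at the bottom. Developmental lists lie near 100% and housekeeping and PRC2 genes at 0% in each library, whereas all genes lie between 7.91% and 15.0%.

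Genes of stem and progenitor spermatogonia, the stage before cKIT appears, were marked more often than not. Of 15 with a start site, 10 were marked in all 5 lists and 2 in none, beside 6.12% and 81.7% of all genes. These were Egr2, Eomes, Gfra1, Id4, Lhx1, Neurog3, Pax7, T, Upp1 and Utf1. The list shares Eomes, Lhx1, Neurog3, Pax7 and T with the developmental factors. Gfra1, the co-receptor for GDNF on stem spermatogonia, had a highest signal of 190 and 228 in controls and 320, 186 and 237 in cKO. Neurog3 had 236 and 204 in controls and 315, 167 and 225 in cKO. Id4, an inhibitor of bHLH factors in stem spermatogonia, had 126 and 99 in controls and 151, 90 and 151 in cKO. In these 3 genes the groups overlapped. Etv5 and Foxo1, factors of stem cell maintenance, had no called base over their whole extent in any list. Read by extent, Ret, the receptor of GDNF, was covered over 7409 and 16664 bp in controls and 4980, 9035 and 29288 bp in cKO, and Zbtb16 (PLZF) over 6828 bp in control 2, 1284 bp in cKO 2 and 0 bp in the others.

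The sorted stage's own genes were marked in part. Of 12 genes of differentiating spermatogonia and meiotic entry with a start site, 8 were marked in no list, beside 81.7% of all genes, and 1 in all 5, beside 6.12%. By extent, 7 of 15 were marked in no list and 4 in all 5, beside 73.2% and 12.0% of all genes with an extent. Dazl, Ddx4, Dmrtb1, Dnmt3a, Dnmt3b, Rarg, Sohlh2 and Stra8 had no region at a start site in any list. By extent, Dmrtb1 was covered in all 5 lists (2307 to 10700 bp) and Stra8 in control 2 (2574 bp). Sohlh1, a transcription factor of this stage, was marked in all 5, with 120 and 92 in controls and 140, 67 and 105 in cKO. Kit, which encodes the sorted receptor, had a region in control 1 (highest signal 106), cKO 1 (173) and cKO 2 (98) and none in control 2 and cKO 3. Uchl1 was marked in both controls and cKO 3, and Rarb in control 2. By extent, Dmrt1, a factor that holds off meiosis, was covered over 33864 and 40857 bp in controls and 5546, 11540 and 34902 bp in cKO. The low values were those of the 2 libraries with the narrowest regions.

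Of 21 genes of meiotic prophase, 18 were marked in no list and 0 in all 5, and of 19 spermatid genes 14 and 0. Both lie near the shares of all genes, 81.7% and 6.12%. Mei1, Piwil1 and Rec8 were marked in 1 to 4 lists. Prm1, Prm2, Prm3 and Tnp2, the neighbouring protamine and transition protein genes that pack sperm DNA, were each marked in 1 to 3 lists. Prm1 had a highest signal of 92 and 81 in controls, 103 in cKO 3 and no region in cKO 1 and 2. Prm2 and Prm3 had 85 in control 2, 127 in cKO 1, 103 in cKO 3 and no region in control 1 and cKO 2. Tnp2 had a region in cKO 1 alone (127). The merged region at these genes was found in all 5 lists, with a log2 difference of 0.21 ± 0.51 (SE), and did not pass the test. None of 18 housekeeping genes had a region at its start in any list, where 81.7% of all genes had none.

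Imprinted genes, which carry marks of parental origin, were marked in part. Igf2, Magel2, Mest and Slc22a3 were marked in all 5 lists, 4 of 18 with a start site, and 8 were marked in none, beside 6.12% and 81.7% of all genes. Igf2, a fetal growth factor, had a highest signal of 206 and 160 in controls and 269, 240 and 212 in cKO. The cKO values were all above the controls, but its width and its percentile of highest signal overlapped, and the medians over whole lists, given above, were larger in cKO 1 and 2 than in the controls and in cKO 3 lay between them. Grb10, an inhibitor of growth signals, had a region in both controls (88 and 91) and in no cKO library. It was the only member of the lists with that pattern, which 184 of 27025 genes (0.681%) had. The opposite pattern was found in 9 genes (0.0333%), among them Gip, Fcmr, Cpa4 and Kank4. These were named after their values were seen, and none belongs to a list.

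Markers of other cells that a testis sort can hold were marked or silent in the lists as follows. Of Sertoli cell genes, Cldn11 and Dhh were marked in all 5 lists and Fshr in none. By extent, Sox9, Wt1 and Gata4 were covered in all lists (Sox9 over 2339 to 5201 bp), Amh in cKO 3 alone (995 bp) and Rhox8 in none. In total 5 of 8 Sertoli genes were covered in all 5 lists by extent, beside 12.0% of all genes with an extent. Of Leydig cell genes, Insl3 was marked in all 5, Cyp11a1 in cKO 2 and cKO 3, and Hsd3b1, Hsd3b6 and Lhcgr in none. By extent, Cyp11a1 was covered in control 2 (6320 bp), cKO 2 (979 bp) and cKO 3 (6733 bp), Cyp17a1 in cKO 2 (1601 bp) and Star in none. Of mast cell genes, Cma1 was marked in cKO 1, and Cpa3 and Mcpt4 in none. By extent, Cma1 was covered in control 2 (2756 bp) and cKO 1 (1011 bp), and Tpsb2 over 1784 and 1982 bp in controls and 0, 1070 and 3789 bp in cKO. A list of called regions cannot give the share of other cells, since a region shows that some cells carry the mark and not how many.

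None of 13 KDM6 and PRC2 genes with a start site, which remove and write the mark, had a region there in any list, among them Ezh2, Eed and Suz12. As 81.7% of all genes had none either, the count is near that background. Kdm6a had no called base over its whole extent (chrX:18160862-18279936) in any of the 5 lists, so these data hold no check of its deletion. Its RNA is given with the single cells. In total 12.2%, 15.0%, 7.91%, 10.0% and 13.7% of genes had a marked start site in control 1, control 2, cKO 1, cKO 2 and cKO 3, against 0.625% on the IgG list. That list holds only regions that overlap control 1, so its share is not a separate background. The numbers of marked genes averaged 3680 ± 538 (SD, n = 2) in controls and 2852 ± 798 (SD, n = 3) in cKO, p = 0.3 by the exact permutation test.

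The X chromosome held few regions. It held 53 and 81 in controls and 35, 49 and 57 in cKO. Its share of the covered length was 0.261% and 0.335% in controls and 0.273%, 0.285% and 0.230% in cKO (p = 0.5 by the exact permutation test), while it carries 4.41% of RefSeq protein-coding genes. The X share of the IgG list was low too, at 0.147% of its length. Each region of that list overlapped a region of control 1, so this share is not a separate background. These cells carry a single X, and the part of copy number in the low shares was not tested. The 16 shared X regions had a median log2 difference of 0.02.

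Open chromatin was set beside the mark. The ATAC-seq of the same sorted cell type has 2 control and 3 cKO libraries, with the groups' genotypes as above, and 8644 merged peaks were found in all 5 ATAC lists. The share of H3K27me3 regions that overlapped one of them was 2.80% and 2.60% in controls and 2.26%, 2.41% and 2.79% in cKO (p = 0.4 by the exact permutation test). The peak names in the ATAC list labelled cKO 1 begin with the same code as those of control 1, so its genotype is given only as labelled. Of genes without a marked promoter, 30.0% had an ATAC peak within 1 kb of a start site in all 5 ATAC lists, against 7.32% of the 1653 genes marked in all 5 H3K27me3 lists. The contrast depended on the ATAC library. Peaks of control 2 and cKO 3, the 2 longest lists (33250 and 40497 peaks), lay at 53.2% and 64.2% of the fully marked genes, more than at unmarked genes (46.3% and 48.3%), while those of control 1, cKO 1 and cKO 2 lay at 21.4%, 13.5% and 23.0%. No gene of the HOX clusters or of the developmental signals had an ATAC peak in all 5 lists, and this too depended on the library. In control 2 and cKO 3, 54.2% and 62.5% of HOX-cluster genes had a peak, above the 46.3% and 49.4% of all genes. Developmental signals and developmental factors (65.2% and 77.3%) were above all genes there too. In control 1, cKO 1 and cKO 2 these groups were below all genes. Of 12 genes of differentiating spermatogonia, 7 had an ATAC peak in each list (Dazl, Dnmt3a, Kit, Rarg, Sohlh2, Stra8 and Uchl1), while Sohlh1 and Dnmt3b had one in 4 lists and Ddx4 in 3. Of 18 housekeeping genes, 16 had one in each, beside 26.2% of all genes.

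RNA of the marked genes was read in single cells of whole testis, with 1 library per genotype and therefore no test. Cells were kept at 3000 UMIs or more and at most 10% mitochondrial UMIs, and those with a UMI of at least 3 of 7 markers (Kit, Stra8, Dmrt1, Sohlh1, Sohlh2, Dnmt3b and Ccnd2) were taken as a gate for the sorted stage. The gate held 174 of 10988 control cells and 104 of 8258 cKO cells, with median depths of 7593 and 6851 UMIs. The libraries shared 27 of the kept barcodes and none of the gated ones. Dazl, a germ cell gene outside the gate's markers, was at 841 CPM (UMIs of the gene per 1000000 UMIs) in gated control cells and 882 in gated cKO cells, against 110 and 104 over all kept cells. Prm1, a spermatid gene, was at 5762 and 8672 CPM in the gate, so RNA of other cells was present there. Of the markers of other testis cells, Star, Sox9 and Cpa3 were low in the gate and over all kept cells alike. The Leydig markers Insl3 and Cyp11a1 were low in the gate only. Insl3 was at 2.47 and 2.20 CPM in the gate and 54.8 and 37.4 over all. Cyp11a1 was at 2.47 and 0 CPM in the gate and 13.2 and 14.2 over all. Star was at 4.32 and 1.10 CPM in the gate and 5.24 and 5.82 over all, Sox9 at 0.617 and 3.29 in the gate and 1.52 and 1.53 over all, and Cpa3 at 0 and 0 in the gate and 0.282 and 0.215 over all. Levels of a few CPM in the gate, that of Gfra1 included, thus lie in the range of markers of other cells. Kdm6a was at 19.8 CPM in control (95% Poisson interval 13.5 to 27.9, from 32 UMIs) and 4.39 CPM in cKO (1.20 to 11.2, from 4 UMIs). These intervals cover counting error only, and the sources do not say whether the counted end of the transcript lies in the deleted part.

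Marked genes had less RNA than unmarked ones. Of protein-coding genes marked in none of the lists, 51.2% reached 10 CPM in gated control cells. The share was 23.7%, 25.1%, 19.2%, 14.5% and 11.9% for genes marked in 1, 2, 3, 4 and 5 lists. In gated cKO cells it was 49.9% for unmarked genes and 11.5% for genes marked in all 5. The gated markers were left out of these counts. Over all kept cells of the testis the shares of unmarked genes and of genes marked in all 5 lists were 39.6% and 10.1% in control and 38.3% and 10.2% in cKO. The median level was 11.1 CPM in unmarked genes and 0.617 CPM, the worth of 1 UMI, in genes marked in all 5 lists of the control library. Over all protein-coding genes read, 44.8% reached 10 CPM in gated control cells and 43.7% in gated cKO cells. Of 24 HOX-cluster genes only Hoxd8 reached 10 CPM in control, and it is one of the 4 not marked in every list. Hoxd8 was lower in the gate than over all kept control cells (24.1 against 46.0 CPM). Of 66 developmental factors, 2 did in control and 3 in cKO, where the third was Gata2 (17.6 CPM), marked in all 5 lists. The 2 in control, Pou4f1 and Tbx1, were both marked in all 5 lists and were higher in the gate than over all kept control cells, at 17.3 against 0.731 CPM for Pou4f1 and 35.8 against 6.03 CPM for Tbx1. All 21 genes of meiotic prophase did in control and 18 in cKO, and of KDM6 and PRC2 genes 12 of 13 in control and 10 in cKO, such as Ezh2 (127 and 89.0 CPM in the gate, 113 and 110 over all kept cells). All 18 spermatid genes did too in both libraries, so passing this line does not show that the gated cells express a gene. Piwil1, a meiotic piRNA factor, was at 78.4 and 73.6 CPM in the gate and at 251 and 253 over all kept cells.

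**Figure D5:**
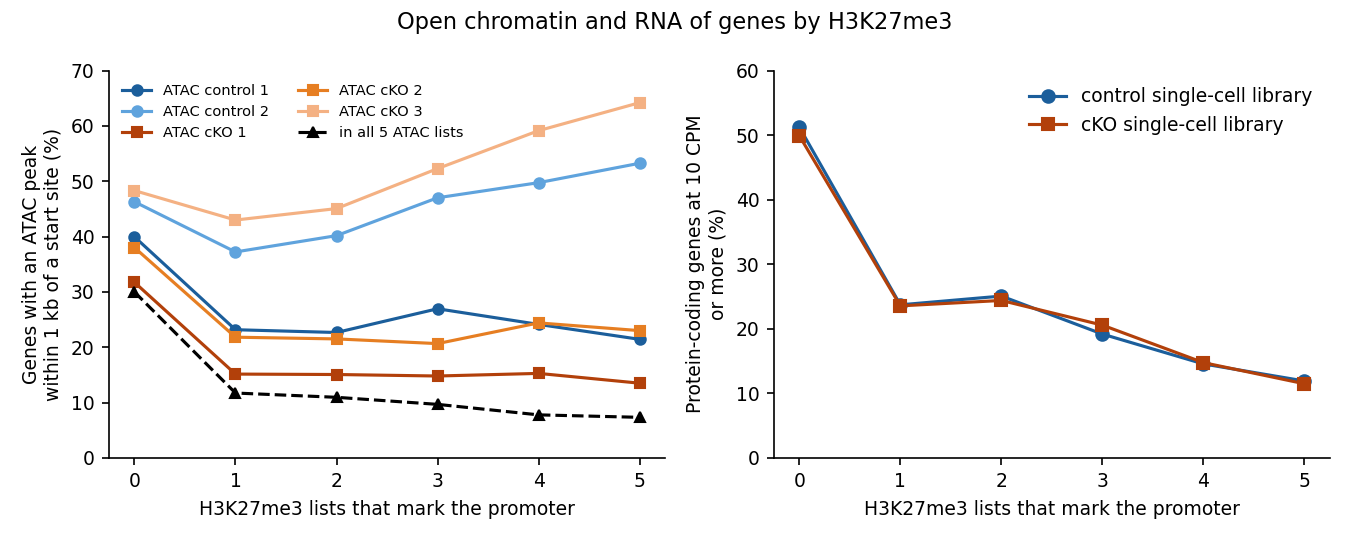
Genes by the number of H3K27me3 lists that mark their promoter (0 to 5): left, share (%) with an ATAC peak within 1 kb of a start site, per ATAC library and in all 5; right, share (%) of protein-coding genes at 10 CPM or more in marker-gated single cells of 1 control and 1 cKO library. The RNA share falls from 51.2% to 11.9% in control and from 49.9% to 11.5% in cKO, and the ATAC share in all 5 lists from 30.0% to 7.32%.

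Some marked genes had more RNA in the gate than over all kept cells. Of the stem and progenitor genes marked in all 5 lists, Upp1 was at 14.2 CPM in control and 12.1 CPM in cKO, against 0.251 and 0.297 over all kept cells. Gfra1 was at 6.17 CPM in control (2.96 to 11.4) and 5.49 CPM in cKO (1.78 to 12.8), against 1.64 and 1.61. Id4 was lower in the gate, at 24.1 CPM in control (17.1 to 32.9) and 8.79 CPM in cKO (3.79 to 17.3), than over all kept cells (48.9 and 49.9 CPM), and the part of RNA from other cells in its level was not tested. Crabp1, a retinoic acid binding protein, was marked in all 5 lists, with a highest signal of 174 and 200 in controls and 230, 159 and 145 in cKO. Its RNA was at 178 CPM in gated control cells and 227 in gated cKO cells, against 3.63 and 4.11 CPM over all kept cells. Cdkn2a, the locus of the cell cycle inhibitors p16 and p19, was also marked in all 5, with 116 and 130 in controls and 160, 97 and 132 in cKO. Its RNA was at 149 and 216 CPM in the gate and 8.20 and 8.17 over all cells, and an ATAC peak lay at a start site in all 5 ATAC lists. Cdkn2a has 2 start sites in the RefSeq table, and which of them the RNA used was not tested. Most other marked genes with high RNA, such as Ccdc136 (674 and 487 CPM) and Dnajb8 (217 and 216 CPM), were higher over all kept cells than in the gate. Crabp1 and Cdkn2a were chosen after their values were seen.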

How the data were processed

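CUT&Tag lists were deposited by the authors as regions with 2 values, the summed and the highest signal. The submitters' processing notes name cutadapt, Bowtie2, SAMtools, deepTools and SEACR, and the build mm10. The labels give an aimed depth of 30 M reads per library, and the sources do not state the depth reached or the scaling between libraries. The ATAC-seq lists of the authors give a score, a signal fold (ratio), −log10 p-values and −log10 q-values. Only their positions were used. The single-cell matrices deposited by the authors hold UMI counts.

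Groups came from the titles. Regions that overlapped by 1 bp or more were merged. List-level values were tested by exact permutation, two-sided, with 10 splits. Regions in all 5 lists were tested with limma 3.58.1 (R 4.3.3) on log2 summed signal, centred on each library's median, with trend and Benjamini-Hochberg adjustment. This was tested on simulated data of 4320 regions. Promoters were RefSeq start sites with 1 kb on either side (GRCm38.p6, which is mm10). The table holds 27025 genes and lacks others, which were read by gene extent. No doublet caller was run on the gated cells. Alternatives covered scaling, measure, merging, IgG regions, thresholds, each library left out and the replicate block. Other tools were Python 3.11.15, pandas 2.3.3, numpy 2.4.6, scipy 1.17.1 and matplotlib 3.10.9.

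Regions named are the 10 with the largest mean summed signal, the 5 with the smallest p in each direction where none was called, the 5 strongest found in 1 genotype and the 5 widest per genotype. Members and gene lists were chosen with earlier results of these data known, and the single-cell gate, gene extents and regions off the IgG list were added after seeing the data.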

Additional observations from a re-analysis of the deposited data

How the results depend on the processing

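Values here are cKO minus control unless said otherwise. Of 147 alternative values for the list measures and counts, 126 kept their sign or stayed within a set margin, 19 moved beyond that margin and 2 reversed. Counts of regions found in 1 genotype, calls of limma and shares of gene lists have no sign and could not reverse. Region number, covered length, width, signal, marked genes and ATAC overlap kept their sign but not their size with a library left out. The difference ranged from -4804 (without control 1) to -855 (without control 2) regions against -2830, from -40.8 (without control 1) to -7.56 Mb (without control 2) against -24.2 Mb, from -1204 (without cKO 3) to -303 bp (without cKO 1) of median width against -621 bp, from 14 (without cKO 1) to 43 (without control 1) in median highest signal against 29.5, and from -1259 (without cKO 3) to -447 (without control 2) marked genes against -828. In summed signal it ranged from -848 (without cKO 3) to -277 (without cKO 1) against -483, in units of 1000000, and in the share of regions on ATAC peaks from -0.365 (without cKO 3) to -0.101 (without cKO 1) percentage points against -0.214, and to -1.33 with the peaks of ATAC control 2 alone. For the 10 regions with the smallest p, 174 kept their direction without a call, 5 were called and 4 reversed. The share of covered length on the X reversed without control 2, at 0.00185 percentage points (-0.0730 to 0.00185 over libraries left out, against -0.0356). The Jaccard difference reversed without cKO 3, at 0.0826 (-0.0608 to 0.0826, against -0.0211). Control-only regions (874) ranged from 1000 to 5010 over libraries left out, which loosens the definition and can only raise the count, and were 465 with each list kept to regions at or above its median highest signal. cKO-only regions (33) ranged likewise from 62 to 298, and were 9 where at least 50% of a merged region had to be covered. Calls of limma were 0 in the main test and under each other scaling, measure, filter, merging and variance model tried. They were 0 to 4 with a cKO library left out, and 0 without cKO 2, the library not named as downsampled. With a replicate block they were 17, with 12 higher and 5 lower, among them the regions at Pabpn1l, Baiap3, Vash2 and Lmo1. That fit leaves cKO 3 out of the difference, since no control has its replicate number. The numbers are not shown to pair libraries, since deviations correlated at 0.063 for number 1 and -0.027 for number 2. The mean share of marked promoters was 97.0% for developmental factors and 92.7% without regions on the IgG list. For developmental signals it was 97.0%, 87.0% without regions on the IgG list and 84.0% at or above the median signal of each list. With 2500 bp around start sites it was 28.3% for differentiating spermatogonia, 18.9% in place of 11.6% for spermatid genes and 47.8% in place of 38.9% for imprinted genes. Per base, the difference reversed for Vash2 (0.229) and for the region outside genes (0.218), and for the unscaled highest signal it reversed for Ces4a (0.00135) and Lmo1 (0.0133). The cause of these was not tested. Precision is limited, since the reads per library are unknown and groups of 2 and 3 cannot give an exact p under 0.1.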

Other observations

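By chromosome, shared regions on chromosome 17 had a median log2 difference (cKO minus control) of 0.16 and those on chromosome 7 of 0.12, beside 0.06 for all shared regions and -0.02 on chromosome 1. The ATAC lists of control 2 and cKO 3 were the longest of their assay, with 33250 and 40497 peaks, and the H3K27me3 lists with the same labels covered most bases of theirs, 81.3 and 70.1 Mb. The labels do not say that these libraries share an animal. Grb10, the imprinted gene marked in the controls alone, had 41.97 CPM in gated control cells and 45.0 CPM in gated cKO cells, with counting intervals of 32.6 to 53.2 and 32.3 to 61.1.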
